A study of Mus musculus with 2 samples.

Results

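Hypoxia-inducible factor (HIF) genes, the genes that set their stability and 5 of their textbook targets were followed in 2 mouse melanoma cultures. The 10 genes were taken by symbol, and all 10 were found among the 23284 symbols of the deposited tables. They are the factor genes Hif1a and Epas1, the degradation gene Vhl, the oxygen sensor genes Egln1 and Egln3, and the target genes Adm, Ndrg1, Car9, Car12 and Bnip3. The B16/BL6 sample was a culture of the invasive subline of the C57BL/6 melanoma line B16, kept in RPMI medium, and the B16 sample was a culture of the parental line, kept in DMEM medium. Both media held 10% FBS and 1% penicillin/streptomycin, neither label names a treatment or an oxygen level, and the study searched for genes related to metastasis. Each line gave 1 mRNA library, so no value has a replicate error, no difference was tested, and line and medium cannot be told apart.

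HIF is a transcription factor made of an alpha and a beta subunit. With oxygen present, prolyl hydroxylases encoded by the Egln genes mark the alpha subunit, and the von Hippel-Lindau protein, encoded by Vhl, brings it to a ubiquitin ligase for destruction. When oxygen falls the alpha subunit persists, joins its partner and binds short DNA motifs near genes of glucose use, acid handling, blood vessel growth and mitochondrial turnover. HIF activity is therefore set mostly at the protein, which mRNA levels do not show. In cultured melanoma and melanocytes the factor is known to be active even at ambient oxygen under some conditions, and Egln3, Adm, Ndrg1, Car9, Car12 and Bnip3 are widely used as readouts of it.

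Among the 10 genes, the factors and their regulators lay within 2-fold between the lines, while the targets went in both directions. Adm and Ndrg1 were past 2-fold toward B16/BL6, and Car12 past 2-fold toward B16. Car9 and Bnip3 were lower in B16/BL6 by slightly less than 2-fold on the scale used for calls. Values are FPKM, fragments per kilobase of transcript scaled to library size, and every difference below subtracts the B16 value from the B16/BL6 value after taking log2(FPKM + 1). The added 1 makes the change of genes near 0 look smaller. Genes that reached 1 FPKM in either library numbered 10709, and of these 3.31% were higher in B16/BL6 by 2-fold or more and 3.16% were lower by 2-fold or more. In bulk RNA, fewer cells that express a gene and less RNA per cell cannot be told apart. Of the 10 members, 2 were higher and 1 was lower, counts too small to set against these shares. All 10 members met the minimum of 1 FPKM, 6 in both libraries, but Adm and Egln3 only through B16/BL6 and Car9 and Car12 only through B16.

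The promoters of Adm, Car9, Car12 and Bnip3, the targets with an entry in the table used, are shown because they let the HIF binding motif, ACGTG or GCGTG, be set beside transcripts that differed in opposite directions. Each runs from 250 bases before to 50 bases after the annotated start in RefSeq's GRCm38.p6 and is written in the direction of the gene. Capitals mark the motif on either strand, so that CACGT and CACGC are the same motif read on the opposite strand. Adm lies at chr7:110627407-110627706 (plus strand), Car9 at chr4:43506776-43507075 (plus strand), Car12 at chr9:66713436-66713735 (plus strand) and Bnip3 at chr7:138909457-138909756 (minus strand).
Adm: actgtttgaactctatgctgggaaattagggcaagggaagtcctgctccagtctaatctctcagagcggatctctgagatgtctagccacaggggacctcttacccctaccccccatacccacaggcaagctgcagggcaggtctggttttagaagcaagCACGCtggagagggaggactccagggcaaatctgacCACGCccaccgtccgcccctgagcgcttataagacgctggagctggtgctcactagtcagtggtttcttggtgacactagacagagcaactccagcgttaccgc
Car9: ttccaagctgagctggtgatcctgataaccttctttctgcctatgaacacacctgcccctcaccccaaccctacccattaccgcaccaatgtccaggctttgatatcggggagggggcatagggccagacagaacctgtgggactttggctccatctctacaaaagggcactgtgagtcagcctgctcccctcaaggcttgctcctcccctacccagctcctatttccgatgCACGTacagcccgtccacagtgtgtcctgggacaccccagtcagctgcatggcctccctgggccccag
Car12: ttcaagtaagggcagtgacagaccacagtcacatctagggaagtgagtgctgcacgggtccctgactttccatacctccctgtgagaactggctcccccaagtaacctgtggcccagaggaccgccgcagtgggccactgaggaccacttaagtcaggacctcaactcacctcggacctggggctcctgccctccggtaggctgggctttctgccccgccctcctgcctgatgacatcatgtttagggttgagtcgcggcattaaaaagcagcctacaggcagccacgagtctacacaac
Bnip3: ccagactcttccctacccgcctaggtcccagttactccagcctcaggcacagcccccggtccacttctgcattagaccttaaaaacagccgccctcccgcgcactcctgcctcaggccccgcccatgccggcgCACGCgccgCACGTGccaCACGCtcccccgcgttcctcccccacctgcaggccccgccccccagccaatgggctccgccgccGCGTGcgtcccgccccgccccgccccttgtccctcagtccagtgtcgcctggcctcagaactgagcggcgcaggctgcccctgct

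The Adm window held 2 motifs, whose first letters lay 90 and 54 bases before the start. In the Car9 window there was 1, 18 bases before the start. The Bnip3 window held 5, 2 of which overlap as the palindrome CACGTG, at 108 and 107 bases before the start. No motif was in the Car12 window. The RefSeq table had windows for 8 of the 10 members, without Epas1 and Ndrg1, and 6 of these 8 held at least 1 motif: besides the 3 above, Hif1a with 3, Egln1 with 2 and Egln3 with 1. The gene spans given below are from another annotation, GENCODE M21, and can begin elsewhere. The Car9 motif and the whole Hif1a window (73907617 to 73907916) lie inside the spans of their genes. A motif this short is common, and 43.8% of all 32851 windows of the same length held it. Among windows of the longer HIF target list described below, 56 of 72 (77.8%) held it, and the 2 shares were not tested. Windows with 5 or more were 1.66% of all. A match is a string of letters and not a measured binding site. Both the gene with the largest positive difference, Adm, and the lower genes Car9 and Bnip3 carried the motif.

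Hif1a, which encodes the widely expressed alpha subunit (chromosome 12, 73901375 to 73947530, plus strand; positions of the members here and below are in GRCm38, the assembly that mm10 names), stood at 68.9 FPKM in B16/BL6, against 50.7 FPKM in B16. The difference was 0.43, a ratio of 1.36. After subtracting the median difference of chromosome 12, 0.17 over 386 expressed genes, Hif1a was at 0.27. Epas1, which encodes the second alpha subunit, prominent in endothelium and kidney (chromosome 17, 86753700 to 86833410, plus strand), was close to the minimum of 1 FPKM, at 1.23 FPKM in B16/BL6 and 1.41 FPKM in B16, a difference of -0.11. Per kilobase, the level of Hif1a was 56.1 times that of Epas1 in B16/BL6 and 36.0 times in B16. Hif1a was thus by far the more abundant alpha subunit transcript in both cultures, and Hif3a, the gene of a further alpha subunit, was listed at 0 in both. The beta subunit gene Arnt was level, at 16.1 FPKM in B16/BL6 and 15.9 FPKM in B16.

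Vhl, the substrate receptor of the ligase (chromosome 6, 113623959 to 113631633, plus strand), had the smallest difference of the 10 genes, at 22.1 FPKM in B16/BL6 and 22.9 FPKM in B16, a difference of -0.05. Its ligase partners were present in both libraries. The adaptor genes Tceb2 and Tceb1, which encode elongins B and C, were at 295 and 130 FPKM in B16/BL6, against 252 and 114 FPKM in B16. Differences of Tceb2 and Tceb1 were 0.23 and 0.18, while the other ligase genes listed, Cul2 and Rbx1, were at -0.44 and -0.12.

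Egln1, which encodes the main oxygen sensor of most cells (chromosome 8, 124908587 to 124949324, minus strand), was at 27.1 FPKM in B16/BL6 and 37.4 FPKM in B16, a difference of -0.45. Egln3, a sensor gene that is itself induced by HIF (chromosome 12, 54178981 to 54203860, minus strand), was at 1.30 FPKM in B16/BL6 and 0.771 FPKM in B16, a difference of 0.38. These low values of Egln3 rested on approximately 40 fragments in B16/BL6 and 22 in B16. After subtracting the median difference of chromosome 12, the Egln3 difference was 0.21. On the per-kilobase scale, the level of Egln1 was 20.9 times that of Egln3 in B16/BL6 and 48.5 times in B16. Egln2, the third sensor of the family, was at 42.7 FPKM in B16/BL6 and 40.0 FPKM in B16, so that Egln2 and Egln1 made up most of the sensor transcripts and Egln3 little in either culture. The HIF asparagine hydroxylase gene Hif1an was at 15.0 FPKM in B16/BL6 and 15.2 FPKM in B16.

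**Figure D1:**
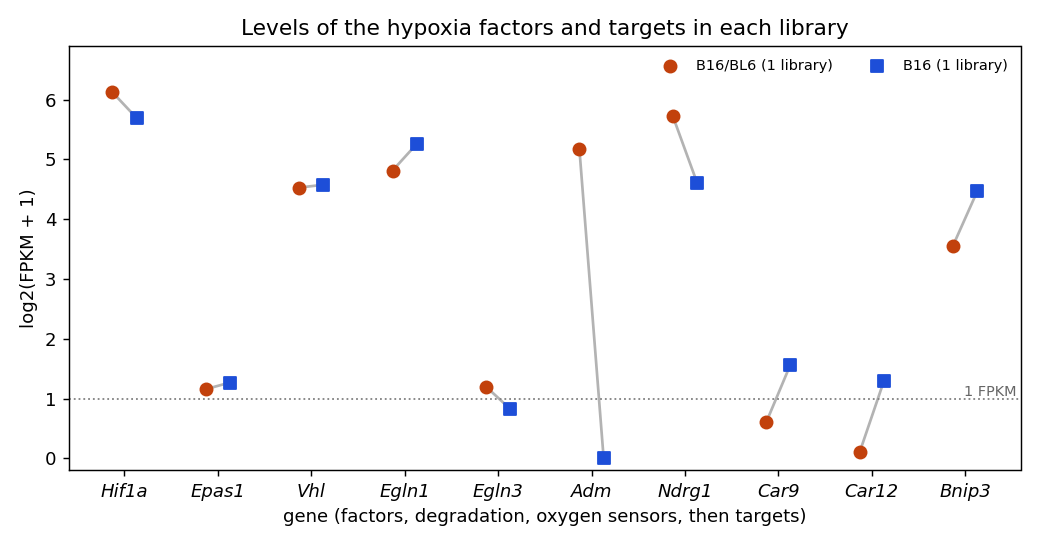
Levels of the 10 genes as log2(FPKM + 1), with B16/BL6 as circles to the left and B16 as squares to the right of each gene, 1 library each. Hif1a, Vhl, Egln1, Ndrg1 and Bnip3 lie well above 1 FPKM in both libraries, Adm is at 35.3 FPKM in B16/BL6 and listed at 0 in B16, and Car9 and Car12 exceed 1 FPKM in B16 alone.

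Adm encodes adrenomedullin, a secreted peptide that widens vessels (chromosome 7, 110627661 to 110629820, plus strand). It was at 35.3 FPKM in B16/BL6 and listed at 0 in B16. Adm was thus listed above 0 in B16/BL6 alone. The difference of 5.18 was the 11th largest of the 10709 genes toward B16/BL6, and no ratio is given against a value of 0. In B16/BL6 the value rested on approximately 568 fragments. A listed 0 can be a failed estimate of the authors' quantification or an absence of transcript. Which of these holds for Adm was not tested. Outside microRNA and other small RNA genes, 2 genes listed at 0 in B16 reached 20 FPKM in B16/BL6, Adm among them, and 0 genes did so the other way round. At 10 FPKM these counts were 6 and 3, and at 5 FPKM 9 and 6. With the small RNA genes included, 11 genes listed at 0 in B16 reached 20 FPKM in B16/BL6 and 9 did so the other way round.

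Ndrg1, a stress-responsive gene that has been described as a metastasis suppressor in several cancers (chromosome 15, 66929318 to 66969640, minus strand), was at 52.0 FPKM in B16/BL6 and 23.5 FPKM in B16. The ratio was 2.22 and the difference 1.12. Its difference ranked 294th of the 10709 genes toward B16/BL6. Its relatives were within 2-fold. Ndrg3 was at 39.6 FPKM in B16/BL6 and 40.5 FPKM in B16, and Ndrg4 at 3.32 and 1.93 FPKM in B16/BL6 and B16. As deposited, Ndrg1 was the 1 target of the 5 that was well measured in both libraries and past 2-fold. This depended on the scale. With each library rescaled to the same sum, Ndrg1 was at 0.96, under 2-fold, and Bnip3 at -1.10 was past it.

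Car9 and Car12 encode membrane carbonic anhydrases that face outward and help tumour cells handle acid. Car9 (chromosome 4, 43506966 to 43513729, plus strand) was at 0.516 FPKM in B16/BL6 and 1.97 FPKM in B16, a ratio of 0.262. With the pseudocount its difference was -0.97, just short of 2-fold. Car12 (chromosome 9, 66713686 to 66766845, plus strand) was at 0.0702 FPKM in B16/BL6 and 1.45 FPKM in B16, a ratio of 0.0485 and a difference of -1.19. Both were low genes. The Car12 values rested on approximately 3 fragments in B16/BL6 and 56 in B16, and those of Car9 on approximately 12 in B16/BL6 and 42 in B16, and no counting interval is given because read counts were not used here.

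Of 14 other carbonic anhydrase genes, 3 reached 1 FPKM, and each was within 2-fold. The membrane enzyme gene Car14 was the most abundant, at 256 FPKM in B16/BL6 and 265 FPKM in B16. The secreted enzyme gene Car6 was at 79.1 FPKM in B16/BL6 and 97.0 FPKM in B16, and the cytosolic enzyme gene Car13 at 35.4 FPKM in B16/BL6 and 24.4 FPKM in B16. Car9 and Car12 were thus a small part of the carbonic anhydrase transcripts in both cultures.

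Bnip3 encodes a mitochondrial protein that promotes mitophagy, the removal of mitochondria by autophagy (chromosome 7, 138890836 to 138909519, minus strand). It was at 10.8 FPKM in B16/BL6 and 21.1 FPKM in B16. The ratio was 0.510, and the difference of -0.91 was short of 2-fold. Bnip3l, its closest relative and also a HIF target, was at 15.6 FPKM in B16/BL6 and 18.0 FPKM in B16, a difference of -0.20.

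**Figure D2:**
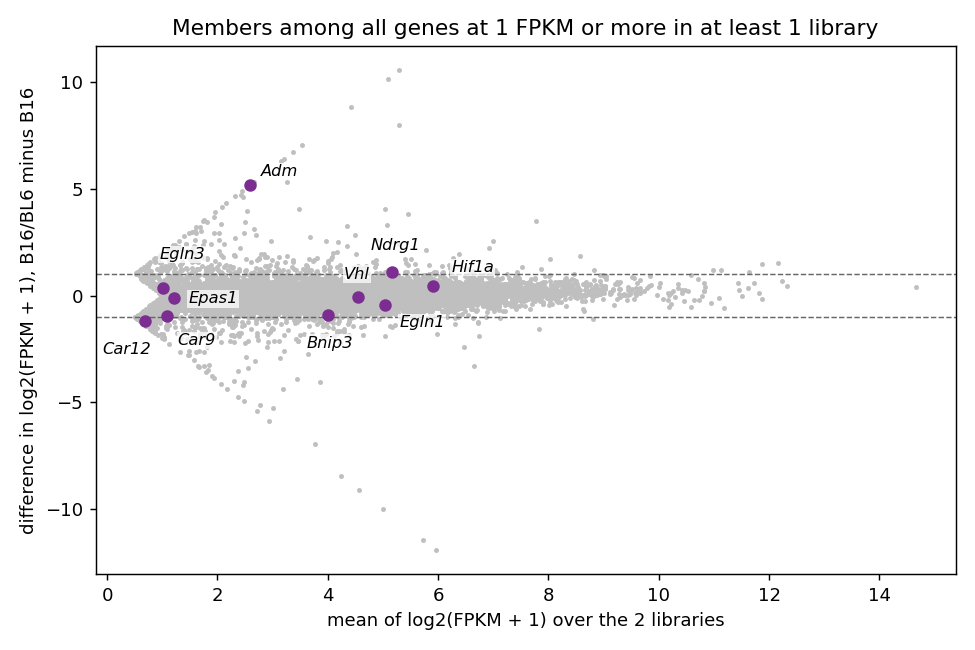
Difference in log2(FPKM + 1), B16/BL6 minus B16, against the mean level over both libraries for 10709 genes (grey), with the 10 members in purple and dashed lines at 2-fold. Adm at 5.18 stands far from the other members, Ndrg1 at 1.12 is just above the upper line, Car12 at -1.19 is just below the lower line, and the remaining 7 lie between the lines.

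A longer list of 62 other textbook HIF targets was set beside the members. The minimum of 1 FPKM was met by 49 of them, of which 6 were past 2-fold toward B16, 0 past 2-fold toward B16/BL6 and 43 within 2-fold. The 6 are 12.2% of the 49, against 3.16% lower among all expressed genes. Of the 6, Stc1, Zfp395 and Eno1 met the minimum only through B16, the library where they were higher. The list was chosen with earlier results of these data known, so these shares are a description and not a test. Differences of 37 of the 49 (75.5%) were below 0, against 49.4% of all expressed genes. The median difference was -0.29, against 0.01 for all expressed genes. Adm and Ndrg1 thus differed toward B16/BL6 while most of the longer list differed the other way.

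Both mitochondrial and glycolytic targets were among the 6 lower genes. Ak4, a mitochondrial adenylate kinase gene, was at 2.57 FPKM in B16/BL6 and 15.2 FPKM in B16, a difference of -2.18. Pdk1, which encodes a pyruvate dehydrogenase kinase, was at 4.53 FPKM in B16/BL6 and 15.9 FPKM in B16, a difference of -1.62. The aldolase gene Aldoc was at 2.58 FPKM in B16/BL6 and 11.1 FPKM in B16, a difference of -1.76. These 3 genes exceeded 1 FPKM in both libraries. A minimum of 5 FPKM, which they met only through B16, kept them and does not change a difference.

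The other 3 lower genes were at low levels and met the minimum of 1 FPKM only through B16. Stc1, which encodes the secreted glycoprotein stanniocalcin, was at 0.0929 FPKM in B16/BL6 and 2.15 FPKM in B16. Zfp395, a zinc finger gene, was at 0.837 FPKM in B16/BL6 and 2.91 FPKM in B16. Eno1, an enolase gene of glycolysis, was listed at 0.657 FPKM in B16/BL6 and 4.32 FPKM in B16, and its value is uncertain, since it belongs to a gene family with known processed pseudogenes and how the authors counted reads with several matches is unknown. Gapdh, a glycolytic gene of which the same holds, was under the minimum, at 0.561 FPKM in B16/BL6 and 0.531 FPKM in B16. Without Eno1, 5 of 48 genes were lower and the median was -0.29.

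By role, all 5 measured genes of the mitochondrial switch and mitophagy were below 0, with a median of -0.64, and Fam162a, the most abundant of them, was at 136 FPKM in B16/BL6 and 212 FPKM in B16. Of 20 genes of glucose uptake and glycolysis, 16 were below 0, with a median of -0.32. The abundant glycolytic genes were within 2-fold: Ldha, the lactate dehydrogenase gene, was at 1289 FPKM in B16/BL6 and 1845 FPKM in B16, and Aldoa at 1962 FPKM in B16/BL6 and 1676 FPKM in B16. Among genes of collagen modification and protein folding, 4 of 5 were below 0, with a median of -0.33. Ero1l, which encodes an oxidase of the endoplasmic reticulum, was at 38.6 FPKM in B16/BL6 and 51.1 FPKM in B16, and the collagen lysyl hydroxylase gene Plod1 at 64.6 FPKM in B16/BL6 and 66.7 FPKM in B16.

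Of 3 measured vascular and secreted targets, 2 were below 0, with a median of -0.69. Vegfa, the vascular growth factor gene, was at 10.1 FPKM in B16/BL6 and 16.9 FPKM in B16. The cytokine gene Mif was level at 786 FPKM in B16/BL6 and 759 FPKM in B16. Mif lies on chromosome 10, whose 528 expressed genes had a median difference of 0.41. Of 8 measured targets with roles in transcription and chromatin, 5 were below 0, with a median of -0.28. The 2 most abundant, the repressor genes Bhlhe40 and Bhlhe41, differed toward B16/BL6. They were at 46.2 and 89.7 FPKM in B16/BL6 against 32.2 and 56.7 FPKM in B16, differences of 0.51 and 0.65. Both lie on chromosome 6, whose 543 expressed genes had a median difference of 0.18. Of 8 measured genes of growth control, lipid and transport, 5 were below 0, with a median of -0.16. The transferrin receptor gene Tfrc was at 119 FPKM in B16/BL6 and 154 FPKM in B16. The lipid droplet gene Plin2 was at 52.6 FPKM in B16/BL6 and 58.9 FPKM in B16.

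**Figure D3:**
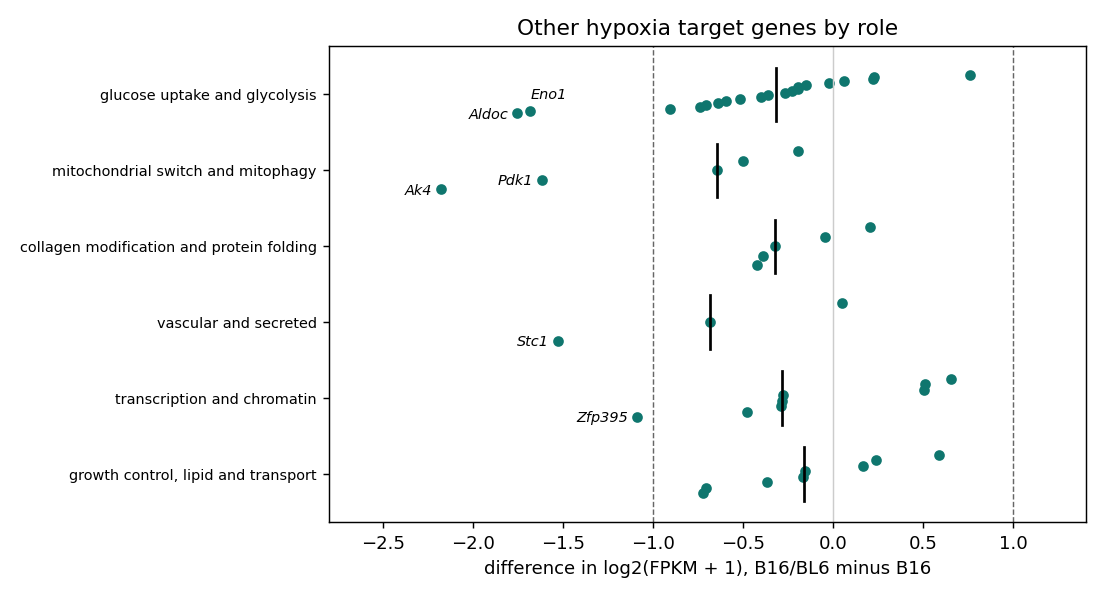
Difference in log2(FPKM + 1), B16/BL6 minus B16, of the 49 measured genes of the longer target list by role. Each point is a gene, the black bar is the median of the role, and dashed lines mark 2-fold. All 6 named genes lie to the left of the lower line, and no gene lies to the right of the upper one.

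Beyond the members, 16 genes of the HIF system were listed, and 13 of them reached 1 FPKM. All 13 were within 2-fold, from -0.44 to 0.32, with a median of 0.09. Cited2, a competitor for the HIF coactivators that is also induced by HIF, was at 67.7 FPKM in B16/BL6 and 54.1 FPKM in B16. Its difference was 0.32, below the median of 0.41 of the 528 expressed genes of its chromosome, 10. The coactivator gene Ep300 was at 19.1 FPKM in B16/BL6 and 15.1 FPKM in B16. Siah2 and Siah1a, which encode ligases that remove the prolyl hydroxylases, were at 8.57 and 6.34 FPKM in B16/BL6, against 10.4 and 5.85 FPKM in B16.

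Genes of adrenomedullin reception were looked at beside Adm. Calcrl, the receptor gene, was at 0.0725 FPKM in B16/BL6 and 0.260 FPKM in B16, both below 1 FPKM. Its partner gene Ramp2 was at 10.6 FPKM in B16/BL6 and 8.32 FPKM in B16, and Ramp3 at 1.46 FPKM in B16/BL6 and 0.358 FPKM in B16. Cxcr7, which encodes a scavenging receptor that can also take up adrenomedullin, was at 11.0 FPKM in B16/BL6 and 3.59 FPKM in B16, a difference of 1.39.

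Genes with the values most like those of a member were sought over the 2 libraries, as the smallest distance between pairs of log2(FPKM + 1) values among 8020 named genes that reached 5 FPKM in either library. For Adm these were Hspb8, at 26.6 FPKM in B16/BL6 and 0.0565 FPKM in B16, and Prr5, at 26.7 FPKM in B16/BL6 and 0.111 FPKM in B16, with distances of 0.41 and 0.42. For Ndrg1 they were Tead2 and Ankfn1, with distances of 0.04 and 0.06. Car12 was itself below 5 FPKM in both libraries, so no likeness is given for it. With 2 libraries such likeness is only a shared pair of values.

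Both cultures carried the melanocyte lineage. All 6 lineage markers were present, from 90.7 to 6160 FPKM in B16/BL6 and from 97.1 to 3789 FPKM in B16, with Mlana the highest and Mitf the lowest in each. Their sum was 18361 FPKM in B16/BL6 and 12071 FPKM in B16, and 4 of the 6 differed toward B16/BL6. Pmel, which encodes a protein of the melanosome fibrils, was past 2-fold, at 4651 FPKM in B16/BL6 and 2166 FPKM in B16, a difference of 1.10. It lies on chromosome 10, whose 528 expressed genes had a median difference of 0.41. Mlana and Dct had ratios of 1.63 and 1.53. The part of these levels in the members' differences was not tested. Markers of other cell types were at or near 0. The 8 endothelial markers summed to 0.0689 FPKM in B16/BL6 and 0.127 FPKM in B16, with Cdh5, Kdr, Tek, Tie1 and Emcn at 0 in both. The 6 fibroblast markers summed to 1.04 FPKM in B16/BL6 and 1.46 FPKM in B16, the 6 epithelial ones to 0.0976 and 0.108 FPKM in B16/BL6 and B16, and the 7 leukocyte ones to 5.59 and 5.58 FPKM, mostly from Lyz2 and Cd68, with Cd3e at 0 in both. Read totals were not used here. The value that a single fragment takes among low genes gave approximate depths of 11559484 fragments for B16/BL6 and 10486729 for B16. Actb was at 1747 FPKM in B16/BL6 and 1789 FPKM in B16.

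The calls of 4 members depended on the scale. When each library was rescaled to the same sum (the TPM scale), the median of all expressed genes moved to -0.16, and 369 genes were higher and 583 lower of 11257, against 354 and 338 of 10709 as deposited. On that scale Ndrg1 was at 0.96, under 2-fold, and Bnip3 at -1.10 and Car9 at -1.36 were past it. Relative to that median, they were at 1.12 for Ndrg1, -0.95 for Bnip3 and -1.20 for Car9. With a pseudocount of 0.1, Car9 was at -1.75 and past 2-fold, and with a pseudocount of 5 Car12 was at -0.35 and no longer past it. A change of pseudocount cannot reverse a direction. Under the TPM scale, upper-quartile scaling and chromosome centring, which could, direction was the same for all 10 members.

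**Figure D4:**
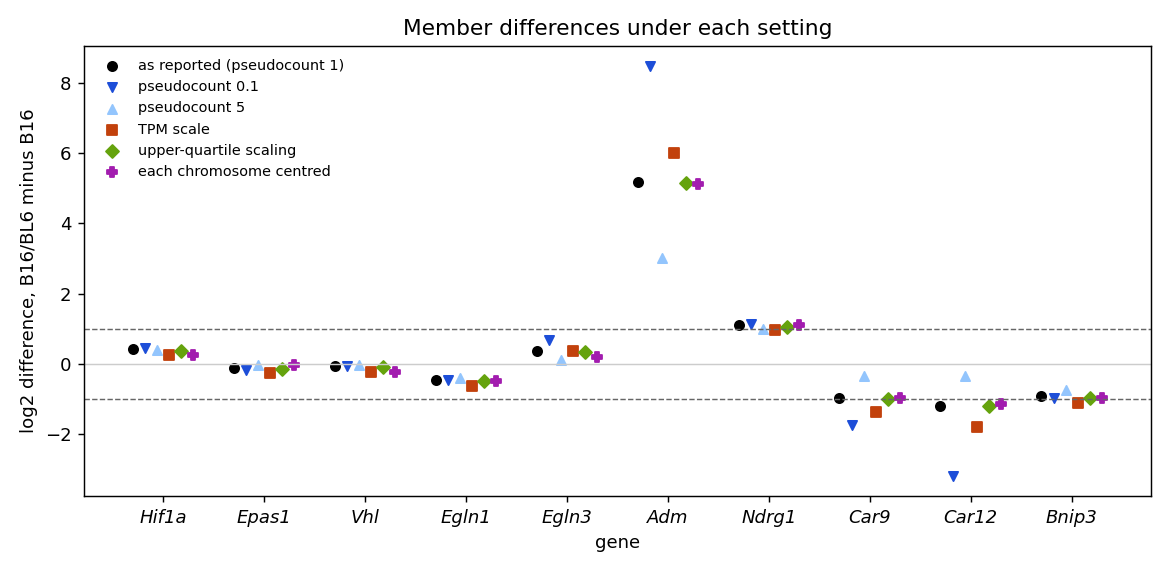
Difference of each member, B16/BL6 minus B16, under the reported setting and 5 alternatives (other pseudocounts, TPM scale, upper-quartile scaling and centring of each chromosome), with dashed lines at 2-fold. Adm ranges from 3.01 to 8.47 and Ndrg1 from 0.96 to 1.14, while Car12 ranges from -3.18 to -0.35 and Car9 from -1.75 to -0.34.

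Genomic neighbours of Adm and Ndrg1 were read for their own differences. Within 5 Mb of Adm, 39 of 41 other expressed genes were within 2-fold, with a median of 0.13. The nearest on each side, Sbf2 and Ampd3, had differences of 0.11 and 0.60. Beyond Adm, Olfml1 (10.5 FPKM in B16/BL6, listed at 0 in B16) and Dkk3 (25.2 FPKM in B16/BL6 and 9.29 FPKM in B16) were the 2 genes higher in B16/BL6. Around Ndrg1, 9 of 12 other expressed genes were within 2-fold, with a median of -0.04, and 3 were higher. Of these 3, Gsdmc (82.1 FPKM in B16/BL6 and 24.2 FPKM in B16, a difference of 1.72) is the farthest, and Wisp1 and Tg are the nearest expressed genes on the side of lower coordinates. Wisp1 was at 12.3 FPKM in B16/BL6 and 4.53 FPKM in B16, a difference of 1.26, and Tg at 15.4 FPKM in B16/BL6 and 3.62 FPKM in B16, a difference of 1.82. On the other side St3gal1 was at 36.9 FPKM in B16/BL6 and 42.1 FPKM in B16. These neighbours were named after their values were seen.

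**Figure D5:**
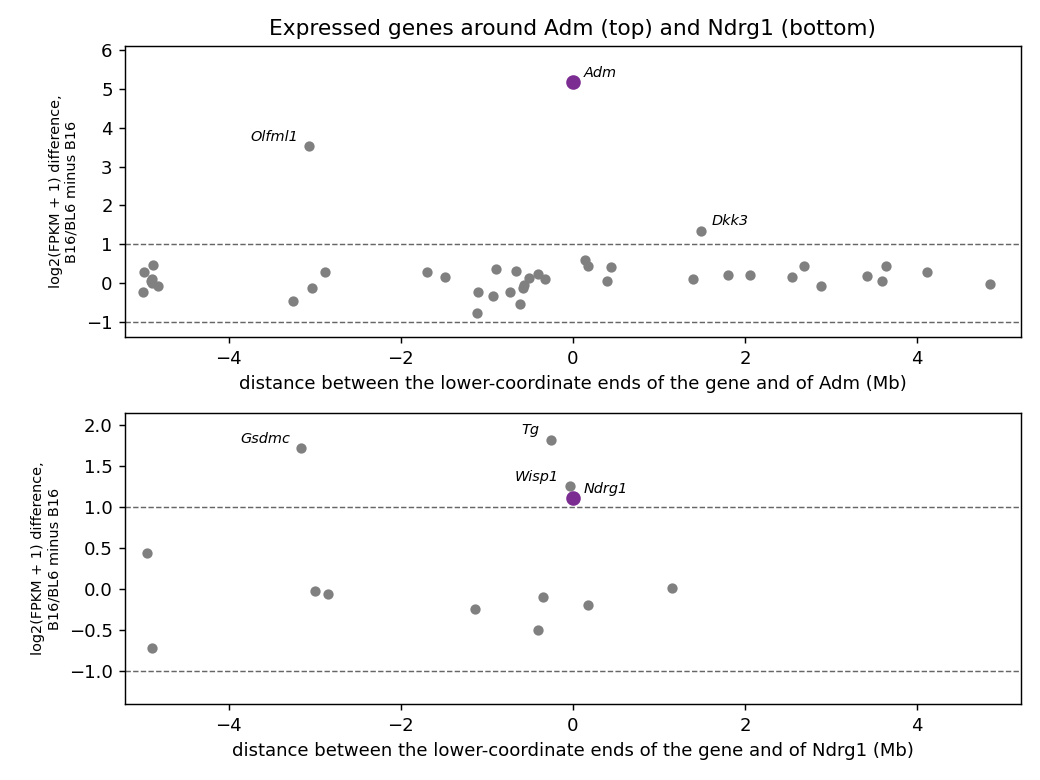
Differences in log2(FPKM + 1), B16/BL6 minus B16, of expressed genes within 5 Mb of Adm (top) and Ndrg1 (bottom), by the distance between lower-coordinate ends, with dashed lines at 2-fold. Adm at 5.18 stands among genes mostly within 2-fold, and Ndrg1 at 1.12 lies next to Wisp1 at 1.26 and Tg at 1.82.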

How the data were processed

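mRNA libraries of cultured B16/BL6 and B16 cells, 1 each, were made with a stranded kit, per the labels' protocols. The deposited values are FPKM per gene symbol, per the file headers. Cufflinks 2.2.1, SAMtools 0.1.19, TopHat2 2.0.13 and Bowtie2 2.2.3 are listed, with the mm10 build, in the submitters' processing notes. Not given in the sources used here were the annotation, the strand setting and the treatment of reads with several matches. Of the members, 5 overlap an annotated gene on the opposite strand, so reads of such pairs may be mixed.

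Differences were computed with Python 3.11.15 and pandas 2.3.3 from FPKM plus a pseudocount of 1, over genes that reached 1 FPKM in either library, and a gene was counted past 2-fold. FPKM is not a count and each line has 1 library, so no test was run. Depth was approximated from single-transcript GENCODE M21 genes above 0 and below 0.1 FPKM with transcripts over 3000 bases, taking estimates of 9000000 to 13000000 fragments as single fragments (22 genes in B16/BL6, 25 in B16), a range set after the estimates were seen. Fragments behind a member use its longest transcript. They are approximations, and no interval was derived. RefSeq placed 10639 of 10709 expressed genes. All members were named, with list genes past 2-fold and the 2 most abundant of each role. Further genes (Hif3a, Cul2, Rbx1, Bnip3l, Ndrg3, Ndrg4, Gapdh, Car6, Car13, Car14, Calcrl, Ramp2, Ramp3, Lyz2, Cd68, the other markers and the genomic neighbours) were named after their values were seen. The members and lists were chosen with earlier results of these data known. The procedure was tested on simulated data, with genes well above the minimum changed well past 2-fold. That test does not cover low genes or differences near 2-fold.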

Additional observations from a re-analysis of the deposited data

How the results depend on the processing

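No paired analysis was possible because each line has 1 library. For the same reason no library could be left out. Of the members, 2 were higher and 1 lower as reported, against 3.31% and 3.16% of all expressed genes. On the TPM scale 1 was higher and 3 were lower, against 3.28% and 5.18%. The number lower was 2 with a pseudocount of 0.1, 0 with a pseudocount of 5 and 0 with a minimum of 5 FPKM, which 6 members passed. Over all genes the share lower at these settings was 4.77%, 1.10% and 2.46%. The longer target list had 6 lower genes of 49 as reported, 8 of 52 on the TPM scale and 7 of 49 with each chromosome centred. The shares lower over all genes at these settings were 3.16%, 5.18% and 3.09%. It had 3 of 49 lower with a pseudocount of 5 and 3 of 43 with the minimum of 5 FPKM, against 1.10% and 2.46% of all genes. Its median was -0.29, and -0.46 on the TPM scale, where 52 genes passed. The median of the HIF system list, 0.09, turned to -0.078 on the TPM scale, where the median of all genes was -0.16. For single members, 45 of the alternative values stayed on the same side of 2-fold, 3 moved past it and 2 fell short of it. None changed sign, which a change of pseudocount alone could not bring about. Upper-quartile scaling and chromosome centring changed none of the calls of the members. Dropping the minimum could not change them, since every member already met it. Depth limits Car12, Car9, Egln3 and Epas1, whose values rest on approximately 3 to 81 fragments a library.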

Other observations

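Transport and acid handling outside the carbonic anhydrases differed gene by gene. Slc4a4, which encodes a sodium bicarbonate cotransporter, was at 11.8 FPKM in B16/BL6 and 0.945 FPKM in B16, a difference of 2.72. The related cotransporter gene Slc4a7 was at 4.45 FPKM in B16/BL6 and 8.88 FPKM in B16, a difference of -0.86. Bsg, which encodes the chaperone of lactate transporters, was at 707 FPKM in B16/BL6 and 366 FPKM in B16, a difference of 0.95, and it lies on chromosome 10, whose 528 expressed genes had a median difference of 0.41. The lactate transporter gene Slc16a1 was at 53.2 FPKM in B16/BL6 and 46.2 FPKM in B16. Of these 4 genes, Slc4a4 alone was past 2-fold. Except Slc4a4, they were named after their values were seen.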
